A study of Homo sapiens with 2 samples.

Results

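Transcripts of the NFkB pathway were examined in SU-DHL-1. This established line was derived from an anaplastic large cell lymphoma (ALCL). Like the other ALCL lines used in the study it carries the fusion gene NPM1-ALK. The cells received a control siRNA (siCTR) or an siRNA directed against the NKL homeobox gene HLX (siHLX) by electroporation and were profiled on HG-U133 Plus 2.0 arrays. There was 1 array per treatment, so no replicate error exists, no test between the treatments was possible, and each difference describes these 2 arrays. Where values are called higher or lower, this refers to the reading on the siHLX array relative to the siCTR array. The set comprised 46 genes chosen by name. It held the 5 subunits of NFkB, 4 IkB inhibitors, 10 kinases and kinase partners, and 12 TRAF adaptors with their partners. The other 15 were feedback, target, ligand and receptor genes, called induced genes below. A gene was read by the probe sets which the array annotation pairs with that gene alone. Of the 46 genes, 44 had such probe sets, 99 in all, out of 19775 genes on the array. TRAF2 and BIRC3 were paired with no probe set alone and were not analysed here.

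NFkB proteins are dimeric transcription factors of lymphoid activation and survival. In resting cells IkB inhibitors hold the dimers in the cytoplasm. Receptors of the TNF family, the antigen receptors and Toll-like receptors recruit TRAF and related adaptors, which activate the kinase complex TAK1 and then the IkB kinases (IKK); phosphorylated IkB is degraded and the dimers enter the nucleus. A second, non-canonical branch runs through the kinase MAP3K14 and the processing of the NFKB2 precursor. Among the genes switched on are those of the inhibitors themselves, which closes a feedback loop, and CD30 (TNFRSF8), the marker antigen of ALCL, is a receptor which signals through TRAF adaptors.

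The binding sequence of NFkB, the kappaB motif, was looked for in the promoters of these genes. RefSeq promoters (GRCh38.p14, 250 bases before to 50 bases after each start of transcription) were listed for 40 of the 46 genes, with 65 promoters. CD40, IER3, IKBKB, NFKBIE, RELB and TRADD were not listed. The kappaB consensus (GGG, a purine, any base, A or T, a pair of pyrimidines, CC) was searched on both strands, with overlapping matches allowed. It was present in 17 of the 65 promoters (26.2%), and in 5.91% of all 35116 promoters of the table and 6.53% of the 22198 promoters of protein-coding genes. By gene, a match was found for 14 of 40 (35.0%), next to 7.09% of all genes of the table and 8.4% of protein-coding genes. These were 3 of 4 listed subunits, 3 of 3 inhibitors, 1 of 9 kinases, 2 of 11 adaptors and 5 of 13 induced genes. The share of kinases (11.1%) lay near that of protein-coding genes. A match describes the letters of the sequence and is no proof of binding. No match says only that these letters are not in this window. The 26 listed genes without a match included TNF, ICAM1, SOD2, TRAF1, EBI3 and TNFAIP2. The set was chosen by name and includes target genes of NFkB, so its share of matches is no independent test.

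The stretches around the matches are shown for 8 subunit, inhibitor, feedback and target genes, whose transcripts are described below. They run 5′ to 3′ on the strand of the gene and end before the start of transcription. The matches shown are in capitals, with their positions in the next paragraph. The window of NFKB2 ends within a further match, which is in lower case. The windows of the subunit genes lie at chr4:102501285-102501344 (NFKB1, plus strand), chr10:102394446-102394506 (NFKB2, plus strand, 1 of 2 promoters with a match) and chr2:60881502-60881562 (REL, plus strand). Those of the inhibitor genes lie at chr14:35404796-35404855 (NFKBIA, minus strand) and chr19:38899916-38899968 (NFKBIB, plus strand). Those of the feedback and target genes lie at chr6:137867167-137867226 (TNFAIP3, plus strand), chr5:151081042-151081101 (TNIP1, minus strand) and chr6:14117671-14117732 (CD83, plus strand).
NFKB1: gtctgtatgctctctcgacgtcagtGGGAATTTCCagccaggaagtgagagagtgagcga
NFKB2: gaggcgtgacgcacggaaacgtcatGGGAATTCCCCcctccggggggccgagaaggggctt
REL: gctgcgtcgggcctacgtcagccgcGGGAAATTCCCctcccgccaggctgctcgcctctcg
NFKBIA: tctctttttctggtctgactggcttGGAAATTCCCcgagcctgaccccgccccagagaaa
NFKBIB: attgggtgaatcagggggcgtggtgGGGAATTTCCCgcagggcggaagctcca
TNFAIP3: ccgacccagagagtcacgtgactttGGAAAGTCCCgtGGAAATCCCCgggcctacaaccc
TNIP1: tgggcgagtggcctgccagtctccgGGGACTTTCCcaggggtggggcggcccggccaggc
CD83: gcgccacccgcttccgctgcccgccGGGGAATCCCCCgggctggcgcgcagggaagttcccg

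The match of NFKB1 began 49 bases before the start of transcription and that of REL 47 bases before it. NFKBIA had its match at 81 and NFKBIB at 28 bases before the start. The match shown for NFKB2 lay at 107, that of TNIP1 at 42 and that of CD83 at 76 bases. Further matches of NFKB2 lay at 78 bases in the same promoter, and at 176 and 21 bases in its other promoter with a match. TNFAIP3 held a pair of matches at 67 and 55 bases, and in CD83 5 overlapping matches covered 12 bases. The matches shown for NFKB2, REL, NFKBIB and CD83 read on both strands. Matches also lay in promoters of NFKBIZ, CYLD, LTA, TRAF3 and BIRC3, and after the start in TAB2.

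**Figure D1:**
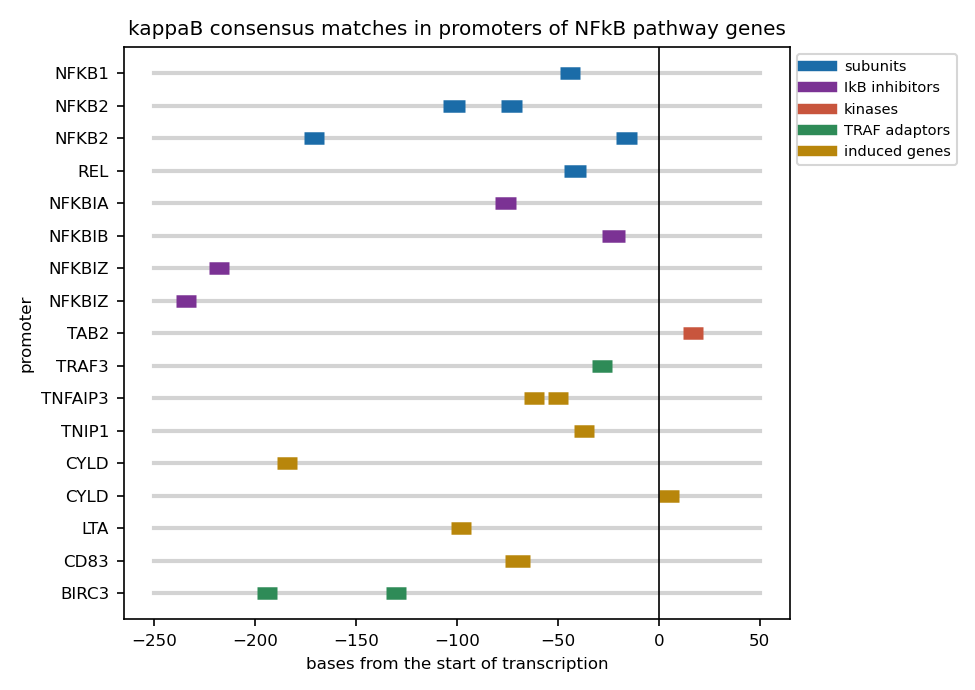
Matches of the kappaB consensus (coloured blocks, by gene class) in the 17 promoters of NFkB pathway genes which hold one; the x axis gives bases from the start of transcription and each grey line is 1 promoter from RefSeq. The blocks of NFKB1, REL, NFKBIB, TNIP1 and TRAF3 and 1 block of NFKB2 lie within 50 bases before the start. Those of TAB2 and of 1 promoter of CYLD begin at or after it.

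The arrays differed little at the level of the whole set. Values are log2 intensities, and a gene with several probe sets is given by its brightest. For 40 genes the mean of both arrays reached the level threshold of 4.865, the median over all probe sets which were not controls, whereas TRAF1, TNF, LTA and EBI3 lay below it. Of these 40 genes, 17 were higher, 20 were lower and 3 read the same on both arrays, where 47.4% of the 12135 genes above the threshold were higher and 50.1% lower. The median log2 difference, siHLX minus siCTR, was -0.005, and the median over all 12135 genes was -0.01. A distance of at least 0.5 log2 units (1.41-fold) was reached by 1 gene upward, TRAF3IP3, and by 1 gene downward, TAB1. Over all genes above the threshold the shares were 3.90% upward and 3.74% downward, so these counts lie near the background. On the brightest probe set 0 of the 40 genes reached 2-fold, next to 0.453% of all genes upward and 0.387% downward. Most members were close to 0, with 30 of 40 less than 0.25 log2 units from it, next to 72.7% of all genes.

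**Figure D2:**
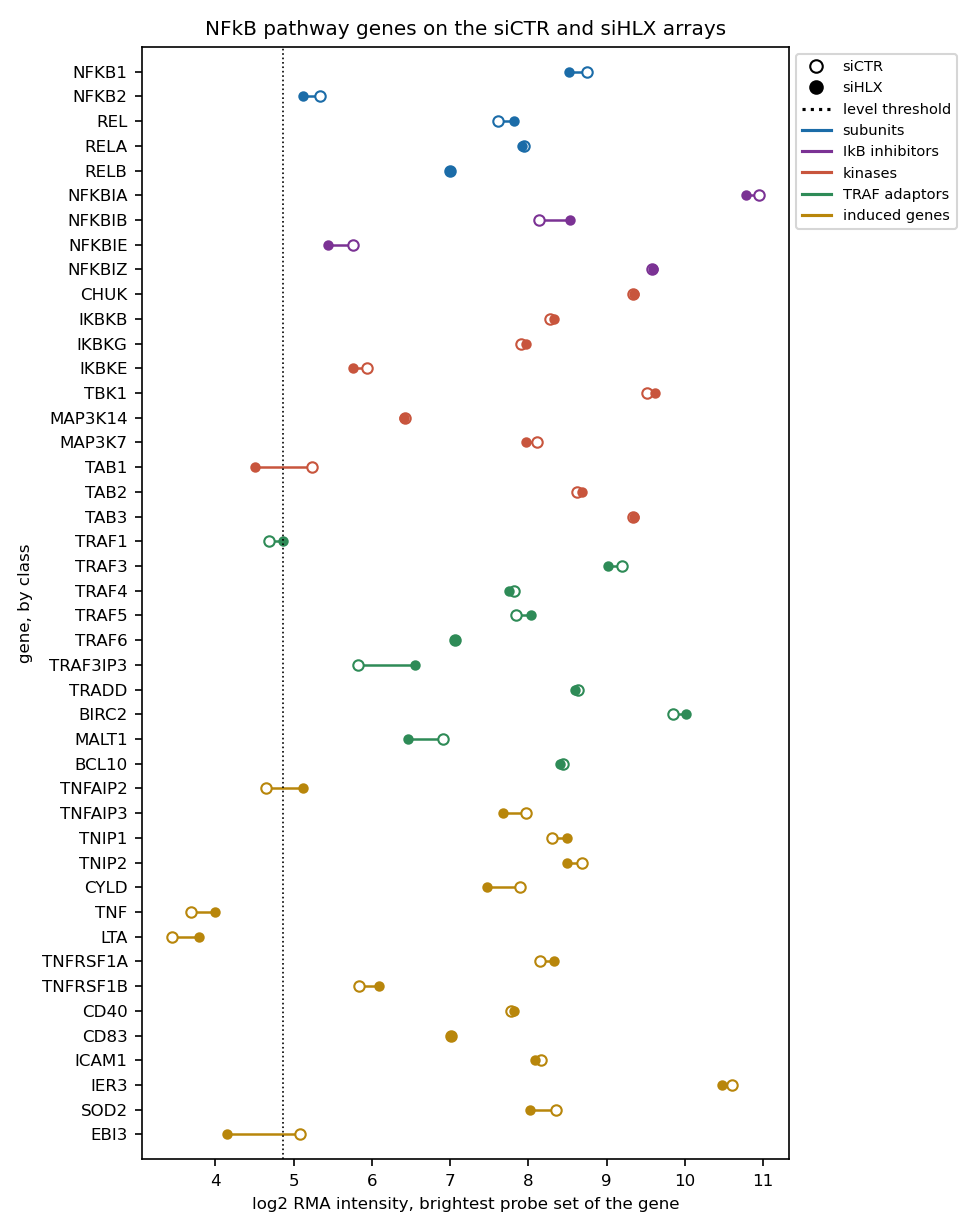
Log2 RMA intensity (x axis) of the brightest probe set of each of the 44 measured NFkB pathway genes (y axis, by class), with open circles for siCTR, filled circles for siHLX and a dotted line at the level threshold of 4.865. Most pairs of circles overlap or touch, and the longest lines belong to EBI3, TRAF3IP3 and TAB1.

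HLX, the target of the siRNA, read 8.15 on the siCTR array and 7.70 on the other (-0.45). This was 0.73 times the control level, on 1 probe set above the threshold, and did not reach the limit of 0.5 log2 units. Among similarly bright probe sets, 1.6% were at least as low. The differences below thus stand beside a partial loss of the HLX transcript. The identity of the cells was checked with 7 ALCL markers (TNFRSF8, ALK, BATF3, IRF4, IL2RA, GZMB and PRF1), which had levels from 9.85 to 13.4. Of the markers of other cell types, 2 of 4 measured B-cell genes, 2 of 5 monocyte genes and 2 of 4 epithelial genes lay above the threshold. These were CD79A (6.69) and PAX5 (5.205), CSF1R (6.01) and CD163 (9.37), and KRT8 (5.155) and KRT18 (7.12). MS4A1, CD79B, CD14, LYZ, FCN1, EPCAM and CDH1 were below it. The part of other cells in the results was not tested. Poly-A spike controls, added before labelling, differed by -0.29 on average (SD 0.18 over 24 probe sets), and hybridisation controls by -0.03 (SD 0.08 over 18). When the arrays were scaled so that the poly-A controls were equal, the median of all genes was 0.28 and that of the NFkB genes 0.28 as well. All signs given here are therefore relative to the bulk of genes. With that scaling 6 of the 40 genes still read lower (NFKBIE, TAB1, MALT1, TNFAIP3, CYLD and SOD2). The share of all genes which did so was not counted.

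The subunits had differences from -0.23 to 0.20 and a median of -0.02. NFKB1, the precursor of a DNA-binding subunit of the canonical branch, read 8.75 with siCTR and 8.52 with siHLX. RELA, its usual partner with a transactivation domain, read 7.94 and 7.92, and its other probe set 7.15 on both arrays. RELB, the partner in the non-canonical branch, read 7.0 on both. RELA and RELB thus stayed within 0.02 of the control reading. REL, the subunit prominent in lymphocytes, went from 7.61 to 7.81. Its further probe sets above the threshold differed by 0.03 and 0.13, and those below it by 0.95 and 0.40, so that all 5 lay on the upper side. The mean over the 3 above the threshold was 0.12 (SD 0.09). NFKB2 was dim, with 5.34 and 5.12 on the brightest probe set (-0.22) and 0.31 on the next, so its readings gave no common direction.

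The inhibitors spread from -0.32 to 0.39, with 2 higher and 2 lower. NFKBIA (IkB alpha), the fastest responding inhibitor of the loop, went from 10.95 to 10.78, a difference of -0.17, and among probe sets no more than 0.5 log2 units from it in brightness 7.77% were at least as low. Its dim probe set read 0.14. NFKBIE, a further cytoplasmic inhibitor, read 5.76 and 5.44. NFKBIB had the highest value of the class, from 8.14 to 8.53, but only on the brightest of its 3 probe sets. The other readings were 0.02 and -0.12, and both upper ones came from probe sets with the suffix _x_at, which marks probes that may bind other transcripts as well. NFKBIZ, a nuclear family member which acts on selected target genes, read 9.58 and 9.59 on one probe set and 7.53 and 7.22 on the other.

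The kinase genes ranged from -0.73 (TAB1) to 0.11 (TBK1) with a median of 0.01, and the 9 genes other than TAB1 were less than 0.25 from 0 on their brightest probe sets. The catalytic IKK subunits CHUK (IKK alpha) and IKBKB (IKK beta) differed by 0.01 and 0.06, and the regulatory subunit IKBKG (NEMO) by 0.06. The other probe sets of IKBKB went apart, from 6.55 to 6.25 (-0.30) and from 4.96 to 5.57 (0.61). IKBKG has a nearly identical pseudogene copy, so its reading is uncertain. The IKK-related kinase genes TBK1 and IKBKE, known from the interferon response, had 0.11 and -0.18, and the second probe set of IKBKE read 0.24. MAP3K14 (NIK), the starting kinase of the non-canonical branch, read 6.42 and 6.41.

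The lowest readings of the kinase class came from TAB1 and TAB3, binding partners of TAK1. MAP3K7 (TAK1) was lower on all 4 probe sets relative to the bulk of genes, by 0.14 on the brightest (8.11 to 7.97) and with a mean of -0.20 (SD 0.14). TAB1, which activates TAK1, fell from 5.23 to 4.50 on its only probe set, a difference of -0.73. Its mean of 4.865 equals the level threshold, its siHLX reading lay below it, and 6.33% of similarly bright probe sets were at least as low. TAB2, which binds ubiquitin chains, had 0.06 and -0.11. TAB3, its close relative, read 9.34 and 9.35 on the brightest probe set, while the other 3 read -0.29, -0.82 and -1.08 at falling brightness, the last below the threshold. The brightest and the dimmer probe sets of TAB3 thus differed, as did those of IKBKB.

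Among the adaptors, TRAF3IP3, which encodes a binding partner of TRAF3, stood highest. Its brightest probe set went from 5.82 to 6.55, a difference of 0.73 or 1.66 times the control level, and 1.94% of similarly bright probe sets were at least as high. A second one above the threshold went from 5.12 to 5.74 (0.62). Below the threshold, one read 0.76 and the other -0.22. Thus 3 of the 4 probe sets were higher by 0.62 to 0.76. The mean over all 4 was 0.47, so the gene passed the limit of 0.5 by its brightest reading and not by this mean.

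The TRAF genes themselves showed small values on their brightest probe sets. TRAF3, which restrains the non-canonical branch, read 9.19 and 9.02 (-0.17), with 0.14 on its other probe set. TRAF5 had 0.19 and TRAF4 -0.07, with -0.33, 0.02 and -0.21 on the other probe sets of TRAF4. TRAF6, the adaptor of Toll-like and IL1 receptors, read 7.06 on both arrays with the brighter probe set, but went from 5.68 to 6.42 with the dimmer one (0.74). TRAF1, itself a target of NFkB, lay below the threshold at 4.69 and 4.87. BIRC2, a ubiquitin ligase bound to TRAF proteins, had 0.16. TRADD, the adaptor of TNF receptor 1, had -0.03, and 0.10 on a probe set of similar brightness. MALT1, the protease of the antigen receptor branch, went from 6.91 to 6.46, whereas its other probe sets read 0.29 and -0.16. Its partner BCL10 had -0.04 and 0.12 on probe sets above the threshold. Signs were thus mixed within the class, and between probe sets of TRAF3, TRAF4, TRADD, MALT1 and BCL10.

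The class of induced genes, which also holds receptor genes, had a median of -0.04 (5 higher, 6 lower, 1 equal). Whether NFkB induces each of them in these cells was not tested. Of the feedback genes, TNFAIP3 (A20), a ubiquitin-editing enzyme which shuts the pathway off, went from 7.97 to 7.67 (-0.30), and its second probe set read -0.09. CYLD, a deubiquitinase with the same role, went from 7.89 to 7.47 (-0.42) on the brightest of 7 probe sets, and the 5 above the threshold ranged from -0.83 to 0.41. TNIP1 and TNIP2, partners of A20, had 0.19 and -0.19, but the other probe sets of TNIP2 read -0.14 and 0.31. The feedback genes thus did not share a direction.

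Ligands and receptors gave no value beyond 0.35. TNF and LTA, the founding cytokines of the pathway, lay below the threshold on both arrays, with 3.69 and 3.99 for TNF and 3.44 and 3.79 for LTA. Their receptor genes TNFRSF1A and TNFRSF1B had 0.18 and 0.25. CD40, the costimulatory receptor of antigen-presenting cells, read 7.78 and 7.82, and its 3 probe sets above the threshold lay between -0.02 and 0.13.

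Target genes went both ways. SOD2, the mitochondrial superoxide dismutase, had 1 probe set of its own, which went from 8.35 to 8.02 (-0.33). Of similarly bright probe sets, 4.57% were at least as low. IER3, an immediate early gene of cell survival, had -0.13, and the adhesion receptor gene ICAM1 had -0.07 with 0.22 and -0.14 on its other probe sets. CD83, an activation antigen, read 7.01 on both arrays. TNFAIP2 had 0.47 at a level of 4.885 and -0.47 on its other probe set. EBI3, a cytokine subunit, went from 5.08 to 4.15 (-0.93), but its mean of 4.615 was below the threshold and it took no part in the counts.

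**Figure D3:**
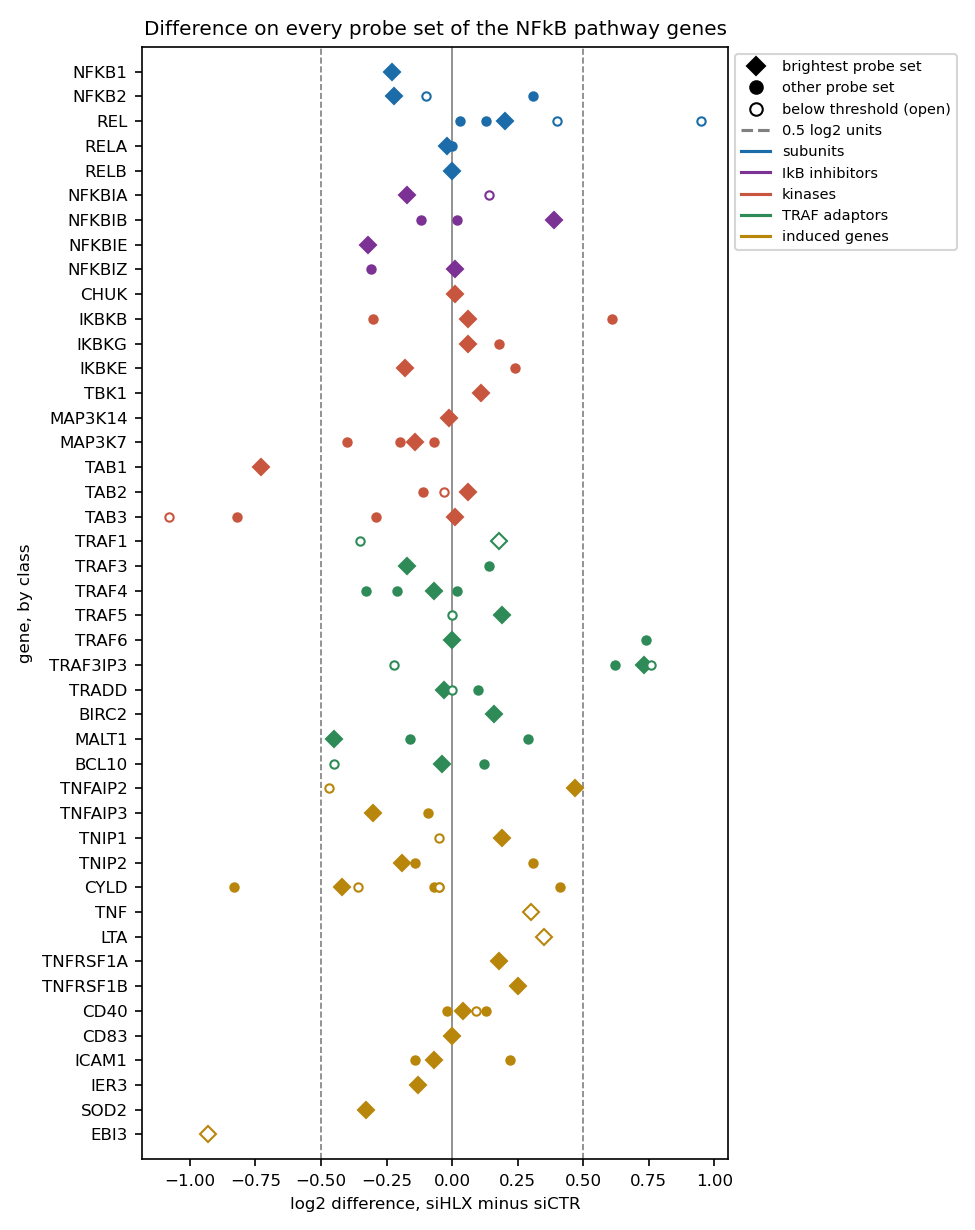
Log2 difference, siHLX minus siCTR (x axis), on each of the 99 probe sets of the 44 measured genes (y axis, by class); diamonds are the brightest probe set of a gene, circles the others, open symbols lie below the level threshold and dashed lines mark 0.5 log2 units. TRAF3IP3 has 3 symbols to the right of 0.5, while those of CYLD, TAB3, IKBKB and MALT1 lie on both sides of 0.

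Readings of the same gene by different probe sets gave a spread between probe sets. This spread holds no variation between transfections, RNA samples or arrays, which 1 array per treatment cannot give. The threshold was reached by 2 or more probe sets for 23 NFkB genes, and the pooled SD between them was 0.29, next to 0.27 for all 5869 such genes. Only REL, IKBKG, MAP3K7, TRAF3IP3 and TNFAIP3 kept 1 sign over these probe sets, 5 of 23 (21.7%), next to 37.1% of all genes. A difference of exactly 0 has no sign. Most differences given above were smaller than this spread between probe sets. Counting probe sets instead of genes, 4 of 78 above the threshold were at least 0.5 log2 units higher (2 of TRAF3IP3 and 1 each of TRAF6 and IKBKB) and 3 were as much lower (1 each of TAB1, TAB3 and CYLD). Over all probe sets of 1 gene these shares were 4.75% and 4.40%.

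The distance also depended on brightness. At levels of 7 or more, 0 of 31 NFkB genes were 0.5 log2 units away in either direction, next to 0.716% of all genes upward and 0.560% downward. Below a level of 7, 1 of 9 was higher and 1 lower, next to 9.39% and 9.23% of all genes. Between levels of 8.5 and 9 the SD over genes was 0.17, and between 5 and 5.5 it was 0.46. Of the 38 members at a level of 5 or more, TRAF3IP3 lay outside the central 95% of genes of its brightness bin, and CYLD and NFKBIB lay at its border.

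**Figure D4:**
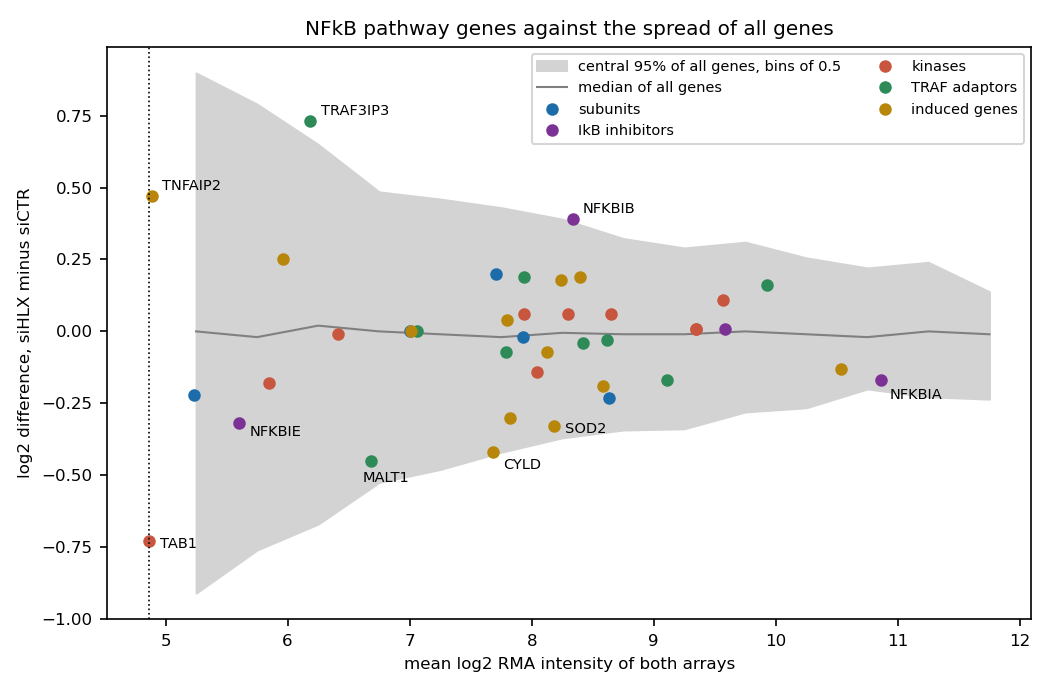
Log2 difference, siHLX minus siCTR (y axis), against the mean log2 intensity of both arrays (x axis) for the 40 NFkB pathway genes above the level threshold (dotted line), 1 point per gene coloured by class; the grey area holds the central 95% of all genes in bins of 0.5 from a level of 5. TRAF3IP3 lies above the grey area at 0.73, and TAB1 and TNFAIP2 lie at the threshold.

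Genes with and without a kappaB match were set side by side. The 12 genes above the threshold with a match in a listed promoter had a median of -0.09, with 5 higher, 6 lower and 1 equal, and ranged from -0.42 (CYLD) to 0.39 (NFKBIB). The 22 listed genes without a match had a median of -0.005, with 10 higher and 11 lower. In both sets the values lay on either side of 0.

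A list of 69 further genes of the pathway was read in the same way. Of 63 with a probe set of their own, 53 lay above the threshold, with 19 higher, 31 lower, 3 equal and a median of -0.07, next to 47.4% higher, 50.1% lower and a median of -0.01 over all genes. The highest were RNF31, the catalytic subunit of the linear ubiquitin ligase, from 6.01 to 6.57 (0.56, and 0.68 on its second probe set), and the lymphotoxin receptor gene LTBR at 0.45, with -0.23 on its other probe set. The lowest were the receptor gene TNFRSF18 at -0.58 and PLEK at -0.55, each on 1 probe set above the threshold. These and RNF31 were the 3 of 53 genes at least 0.5 away from 0, where all genes had 3.90% upward and 3.74% downward. CD30 (TNFRSF8) itself read 9.92 with siCTR and 9.79 with siHLX.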

How the data were processed

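Gene expression was measured on 2 arrays, 1 per siRNA. The authors deposited log2 intensities with 2 decimals for each probe set, made with RMA (background correction, quantile normalisation) and with limma and affy named in the submitters' processing notes, their versions not given in the sources used here. Ratios to the sample mean, which the methods of the study describe, were not applied in these values. Quantile normalisation sets both arrays equally bright and hides a shift common to most transcripts. The sequence of the siRNA was not given in the sources used here, and the number of arrays limits the precision.

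Of 54613 probe sets which were not controls, 41091 were paired with 1 gene, 1801 with several and 11721 with none in the platform annotation. Symbols of all 44 measured members were found by Entrez identifier in RefSeq (GRCh38.p14). A further 5 probe sets paired with a member and another gene were not used. Brightness is not comparable between probe sets, so levels of different genes were not ranked. A gene was represented by its brightest probe set and counted when its mean over both arrays was at or above the median of 4.865. No test was run. The members, classes and lists were chosen with earlier results of these data known. All members are named, and of other genes HLX, TNFRSF8 and the 2 highest and 2 lowest of the further list, beside the cell type markers. Python 3.11.15, pandas 2.3.3 and statsmodels 0.14.6 were used. The count at the limit was tried on shuffled differences with 1 log2 unit added to some genes. The kappaB search was tried on planted matches. The other steps were not tried in this way. Alternatives were median centring, a lowess trend (fraction 0.2), poly-A scaling, the mean of all probe sets, the exclusion of _s_at and _x_at probe sets, omission of the level threshold, its rise to the 75th percentile (7.095) and a limit of 1 log2 unit.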

Additional observations from a re-analysis of the deposited data

How the results depend on the processing

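Under median centring 19 members were lower and the median of members was 0.005, on the other side of 0; with the lowess trend removed 20 were lower. TRAF3IP3 and TAB1 stayed past 0.5 under both. Of all 12135 genes, 493 were at least 0.5 higher and 441 lower under median centring, and 470 and 444 without the trend. Scaled to equal poly-A controls, all readings shifted upward, with a median of 0.28 for the members. The medians were 0.27 for subunits, 0.21 for inhibitors, 0.30 for kinases, 0.26 for adaptors and 0.25 for induced genes. Of the 40 members, 4 were at least 0.5 higher and 0 lower, next to 1908 and 124 of all 12135 genes. There were 6 members below 0, and the same count over all genes was not made. With the mean of all probe sets, 0 of 38 genes were at least 0.5 higher and 2 (TAB1 and TAB3) lower, with TRAF3IP3 at 0.47. Over all 10829 genes these counts were 273 and 240. Without probe sets of the suffixes _s_at or _x_at, 26 genes were left. Of these, 0 were at least 0.5 higher and 1 lower, next to 402 and 415 of all 9360 genes. The median of the 2 inhibitors was -0.22. In this setting CYLD read -0.07, NFKBIB -0.12 and IKBKE 0.24, where their brightest probe sets had -0.42, 0.39 and -0.18. The other 23 genes shifted by less than the pooled SD between probe sets of all genes (0.27). Without a level threshold 2 of 44 genes were at least 0.5 lower, next to 1337 of all 19775 genes. In the other direction it was 1 of 44, next to 1242. With the threshold at the 75th percentile, 28 genes were left, 0 were 0.5 away in either direction, and the median of the induced genes was -0.13. Of all 7526 genes above this threshold, 52 were at least 0.5 higher and 40 lower. With a limit of 1 log2 unit, 0 members were called higher and 0 lower, next to 55 and 47 of all 12135 genes. The call of TRAF3IP3 thus rested on its brightest probe sets, of suffix _s_at. Without that suffix the gene had no probe set above the threshold and was not counted. With the mean of all probe sets its call was lost. The call of TAB1 was lost under poly-A scaling (-0.44). Both genes lay under the higher threshold and were not counted there, and neither reached the limit of 1 log2 unit. No paired analysis was possible because there was 1 array per group, and no replicate could be left out.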
